A study of Drosophila melanogaster with 12 samples.

Results

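Long non-coding RNA (lncRNA) genes were followed in heads of Drosophila melanogaster males during oxidative stress (OS). The genes were chosen by name and level, as those whose FlyBase identifier is paired with a symbol that starts with lncRNA and whose normalized read count averaged at least 50 over all 12 libraries. This left 47 genes of the 384 lncRNA genes by symbol, in a table of 15682 genes. The flies were G9aDD1 mutants and wild-type controls, aged 5 to 9 days, kept for 0, 6 or 12 h on food with 50 mM paraquat, a herbicide that generates superoxide inside cells. G9a is a methyltransferase for lysine 9 of histone H3. G9aDD1 was made by mobilising a P-element. The control line lost that element precisely and shares the background, so the mutant line and the loss of G9a cannot be told apart with a single allele. Each of the 6 groups held 2 libraries of mRNA, each from 200 pooled heads. The 0 h flies had no paraquat and no untreated flies were sampled at 6 or 12 h, so the hour of sampling and the OS exposure cannot be told apart either.

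LncRNA genes are transcribed like coding genes and many of their transcripts are spliced and polyadenylated, but they carry no long reading frame. Some act as RNA. In Drosophila the roX RNAs are part of the complex that raises the output of the male X chromosome, and the hsr-omega transcripts gather RNA-binding proteins into nuclear speckles and are known to rise with heat shock. Other lncRNA genes are the primary transcripts of microRNAs, which are cut out of them by Drosha. For most genes that carry only a CR number no role is established, and in a head they may come from the brain, the eye, the antenna, the fat body or muscle.

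The mean that chose the genes was taken over both genotypes and all times, so levels are a description here and only differences between groups were tested. Both genotypes averaged at least 50 for 42 of the 47 genes. The other 5 (CR43641, CR32385, CR43838, CR43887 and CR43461) passed the minimum through 1 genotype, so their choice favoured a difference between genotypes. Just inside the minimum were CR31044, CR43887 and CR43461 with means of 53.98, 53.70 and 52.37, and just outside CR43910, CR43837 and CR43956 with 49.88, 49.20 and 46.20. Another 41 of the 384 lncRNA genes had no read in any library.

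The libraries held between 19275805 and 41393992 reads on genes. The 4 libraries of 0 h were the deepest, with at least 32325896 reads, whereas no library of 6 or 12 h had more than 24253605. The count for the G9a gene itself lay between 2620 and 3087 in controls and between 3519 and 3700.2 in mutants, so it was not reduced and does not check the labels. Neuronal markers were high in every library (sum of 6 genes between 150341 and 186349) and photoreceptor markers were high as well. Their sum over 10 genes was between 1614344 and 1998877 in controls and between 2134140.4 and 2348122 in mutants, without overlap. Markers of the fat body, the fly's storage tissue, moved with time and genotype. The sum of 6 fat body genes was 69391 and 58483 in controls at 0 h, 27783 and 38499.8 at 6 h and 21986 and 24337 at 12 h, and in mutants 20238 and 23267, 10978 and 10361 and 2929 and 3878. None of the 6 was at 0, although Fbp1 and Fbp2 had means below the minimum for testing of 10. In such bulk samples fewer cells of a type and less RNA per cell cannot be told apart. Antennal markers (15 genes) summed to between 811 and 7522. Their mean sums at 0, 6 and 12 h were 987, 4972 and 1907 in controls and 7133, 5792 and 991 in mutants. Of 11 tested, 9 were called higher in mutants than in controls at 0 h, and 1 higher and 6 lower at 12 h. Of 6 glial markers, 1 rose and 3 fell in mutants from 0 to 12 h. The part of these tissues in the results was not tested. Testis, accessory gland and gut markers stayed at or under 246 in every library.

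The levels were spread over more than 3 orders of magnitude. CR42862 was the most abundant, with a mean of 234872 normalized counts and between 0.811 and 1.03% of all reads on genes in each library. The other 46 genes together held between 0.416 and 0.473%. The next in order were roX1 (70317), Hsromega (11526), noe (10505) and mimi (8619). These values are not divided by length. Per kb of exon the order changed, and CR42862 (42821), roX1 (12859.8) and noe (9754) led, followed by CR40469 (5597), whose single exon of 214 bp made it the shortest gene. Hsromega, the longest with 21710 bp merged over 7 transcripts, came down to 531 per kb, which is not the level of any single form. Gene models were read by identifier from a later annotation (BDGP 6) than the one used for counting (BDGP 5), so the lengths are approximate and no positions are given.

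**Figure D1:**
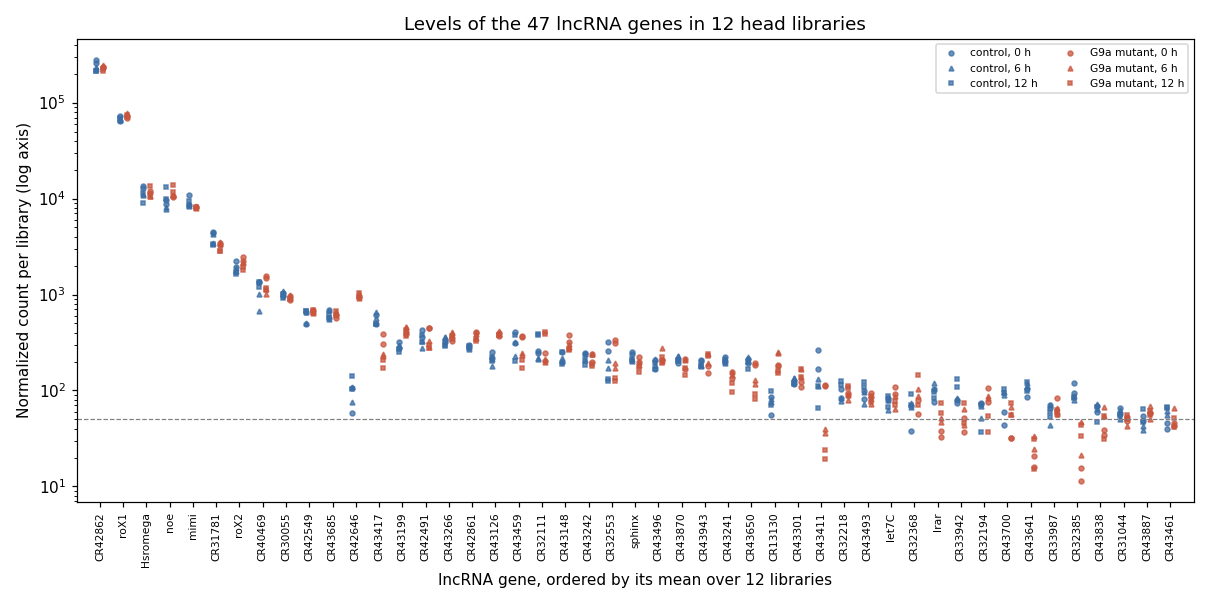
Normalized read counts (log axis) of the 47 lncRNA genes, ordered by their mean, in the 6 control libraries (blue) and 6 G9a mutant libraries (red), with a symbol for each time. The dashed line marks the minimum mean of 50; for most genes the 12 points lie close together, and CR42646, CR43641 and CR32385 stand out by the gap between genotypes.

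For most genes the 12 libraries lay close together. The ratio of the highest to the lowest library was under 2 for 28 of the 47 genes, with a median of 1.77 and a range of 1.21 to 17.9. For the other genes of the table with a mean of at least 50 its median was 1.47, but these were not matched for level. Among the lncRNA genes the median was 1.61 for the 25 with a mean of at least 200 and 2.29 for the 22 with a lower mean. The ratio was at least 5 for 4 genes, which were CR42646, CR43411, CR43641 and CR32385, singled out after their values were seen. A gene was called when its fold change was at least 1.5 and its adjusted p at most 0.05 (limma on the log2 scale with all 12 libraries, Benjamini-Hochberg adjustment over 10530 genes). By this measure 23 of the 47 genes were called in at least 1 of 9 comparisons, against 34.7% of all tested genes, and 24 in none. In comparisons with 0 h 13 genes were called at least once, against 27.2% of all genes, and in comparisons of genotypes 15, against 25.6%. Only 6 genes were called in both kinds.

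roX1 and roX2, the RNAs of the male dosage compensation complex, were not called in any comparison. In controls roX1 had counts of 63902 and 72119.8 at 0 h, 66405 and 67105 at 6 h and 67158 and 69129 at 12 h. In G9a mutants it had 69693 and 71974 at 0 h, 75245 and 77075 at 6 h and 70451 and 73551 at 12 h. All 12 values lay within a ratio of 1.21, and the only comparison with an adjusted p under 0.05 was that of the genotypes at 6 h (log2 fold change 0.19, SE 0.06, adjusted p = 0.038), a difference below the fold threshold. The 95% interval of the change from 0 to 12 h was -0.13 to 0.14 in controls and -0.12 to 0.16 in mutants. roX2 was lower at 12 h than at 0 h in both genotypes, with log2 fold changes of -0.32 (SE 0.08, adjusted p = 0.0071) and -0.31 (SE 0.08, adjusted p = 0.0046), again below the fold threshold. Among the 6 genes for the proteins that work with these RNAs (msl-1, msl-2, msl-3, mle, mof and Clamp) none was called in any comparison, and their median log2 fold change lay between -0.08 and 0.04.

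Hsromega encodes several transcripts, counted together here, among them the stress-responsive nuclear one, and it was not among the called genes. Its counts in controls were 13015 and 13533 at 0 h, 11294 and 10925 at 6 h and 8975 and 11537 at 12 h, and in mutants 11519.8 and 11966 at 0 h, 10635 and 10625 at 6 h and 10844 and 13448 at 12 h. Both control libraries of 0 h and the second mutant library of 12 h were highest, and the genotypes overlapped. In controls the change at 12 h was a log2 fold change of -0.38 (SE 0.11, adjusted p = 0.019), and in mutants 0.04 (SE 0.11, adjusted p = 0.78). The difference of the responses at 12 h was 0.42 with a 95% interval of 0.09 to 0.76 (adjusted p = 0.061), and it was called only when the second control library of 12 h was left out (0.60, adjusted p = 0.0067).

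Heat shock protein genes, which code for chaperones of damaged proteins, gave other values in the same libraries. Of 14 tested, 12 rose in mutants at 12 h (median log2 fold change 2.73), against 1 in controls at 12 h (median 0.37). At 12 h 12 were higher in mutants than in controls (median 2.44), and for 12 the difference of the responses was called (median 2.25). At 6 h 3 rose in controls, and 3 rose and 1 fell in mutants. The Hsp70 copies among them are nearly identical and share reads, so they are not separate observations. No reads were counted for Hsp22, which does not show that it was silent, since its handling in the counting is not known. None of the 7 tested genes for the RNA-binding proteins of the omega speckles was called in any comparison, with medians between -0.22 and 0.04.

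CR42862, noe, mimi and sphinx, a young gene known for its part in male courtship, were not called in any comparison either. In controls CR42862 had 259982 and 278915 at 0 h, 234899.8 and 225875 at 6 h and 212349.6 and 212424 at 12 h, lower at 12 h than at 0 h (log2 fold change -0.34, SE 0.07, adjusted p = 0.0037). In mutants it had 238022 and 234956 at 0 h, 236462 and 245657 at 6 h and 223576 and 215352 at 12 h, and the difference of the responses at 12 h was 0.23 (adjusted p = 0.12). noe was higher in mutants at 6 h (10791 and 10867) than in controls (7752 and 8142), without overlap and with a log2 fold change of 0.45 (SE 0.11, adjusted p = 0.0092). sphinx shares 39.5% of its exonic bases with fuss on the other strand, so its reads are uncertain. It was lower in mutants than in controls at 12 h (log2 fold change -0.32, SE 0.10, adjusted p = 0.03). All of these differences were under 1.5-fold. Of the 8 genes with a name of their own, only Irar was called.

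Of the 47 genes, 6 contain microRNA genes. They are CR43650 (mir-8), CR43459 (mir-277 and mir-34), let7C (mir-100, mir-let7 and mir-125), CR31044 (mir-279 and mir-996), mimi (mir-9381) and Hsromega (mir-4951). Reads on them come from the primary transcript rather than from the mature microRNA, since mRNA was purified. Of the 9 of these microRNA genes with a row used here, 8 had no reads and mir-34 had 10 in all. In the later annotation they lie on exons of the lncRNA genes. Reads there may have been counted for neither gene, so these counts do not tell the transcripts apart.

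CR43650, the primary transcript of mir-8, fell in mutants with OS exposure, and its response differed between genotypes. mir-8 is a member of the miR-200 family and is known to promote insulin signalling and growth from the larval fat body. In controls CR43650 had 194 and 215 at 0 h, 223 and 205 at 6 h and 169 and 198 at 12 h. In mutants it had 192 and 182 at 0 h, 118 and 129 at 6 h and 82.2 and 92.7 at 12 h. The mutant libraries of 0 h lay just below the controls, a difference that was not called (-0.13, adjusted p = 0.51), and those of 6 and 12 h were further apart. The log2 fold change in mutants was -0.59 at 6 h (SE 0.12, adjusted p = 0.0031) and -1.09 at 12 h (SE 0.12, adjusted p = 1.7e-05), while the values in controls were 0.06 and -0.16. The call in mutants at 6 h held in 19 of 23 alternatives and was lost, among others, without the first mutant library of 0 h (-0.55, adjusted p = 0.028) or the first mutant library of 6 h (-0.53, adjusted p = 0.029). The difference of the responses was -0.66 at 6 h (SE 0.18, adjusted p = 0.028) and -0.93 at 12 h (SE 0.18, adjusted p = 0.002). The call at 12 h held in all 23 alternatives of processing and of left-out libraries, and the call at 6 h in 15 of them. The fat body marker sum given above also fell with time, in both genotypes. Its mean was 63937 at 0 h and 23161 at 12 h in controls, and 21752 and 3404 in mutants, where it was lowest. Antennal markers fell in mutants as well, from a mean sum of 7133 at 0 h to 991 at 12 h. Of 6 glial markers, 3 fell and 1 rose there. The part of these tissues in the result was not tested.

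CR43459, the primary transcript of mir-277 and mir-34, fell in mutants at 12 h. mir-277 is known for control of the breakdown of branched amino acids and mir-34 for a role in the ageing brain. In mutants it had 367 and 364 at 0 h, 235 and 245 at 6 h and 171 and 208 at 12 h, so that the libraries of 0 and 12 h were apart (log2 fold change -0.95, SE 0.25, adjusted p = 0.0066). In controls the libraries of 12 h (205 and 378) overlapped those of 0 h (314 and 402), and the difference of the responses was not called (-0.60, adjusted p = 0.24), although it was called without the first control library of 12 h (-1.04, adjusted p = 0.016). In controls the change at 12 h (-0.35) was called only without the second control library of 12 h (-0.79, adjusted p = 0.018). let7C and CR31044 were called in no comparison. For let7C the largest value was the change in mutants at 12 h (-0.43, 95% interval -0.89 to 0.02). For CR31044, whose mir-279 and mir-996 repress the formation of carbon dioxide-sensing neurons, it was the genotypes at 6 h (-0.26, interval -0.67 to 0.16). At means of 80.0 and 54 the intervals were wider than for the abundant genes.

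To ask which lncRNA genes depended on the genotype, mutants were compared with controls at each time. At 0 h 12 of the 47 genes were called, 4 higher and 8 lower in mutants, against 10.3% of all tested genes (5.04% higher and 5.25% lower). At 6 h 10 were called, 4 higher and 6 lower, against 13.9% of all genes (6.53% and 7.39%). At 12 h there were 12, again 4 higher and 8 lower, against 19.7% (9.46% and 10.2%). As shares of 47 these are 25.5%, 21.3% and 25.5%, but these counts hold genes that passed the minimum through 1 genotype. Among the 42 genes that averaged at least 50 in both genotypes, 9, 8 and 10 were called (21.4%, 19.0% and 23.8%), beside 8.0%, 11.8% and 17.7% of the 9020 genes of the table that did so, a count added after the values were seen. Those 9020 genes were not matched for level. Of the 25 lncRNA genes with a mean of at least 200, 5 were called between genotypes at least once. Of the 22 with a lower mean it was 10, and these 22 include the 5 that passed through 1 genotype. Over all tested genes the share was 25.6%. The median log2 fold change of the 47 genes was -0.02, 0.07 and -0.07, beside -0.01, 0.00 and 0.00 for all genes. In the count at 0 h 2 libraries mattered: without the first control library of 0 h it was 7, and without the first mutant library of 0 h it was 6.

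**Figure D2:**
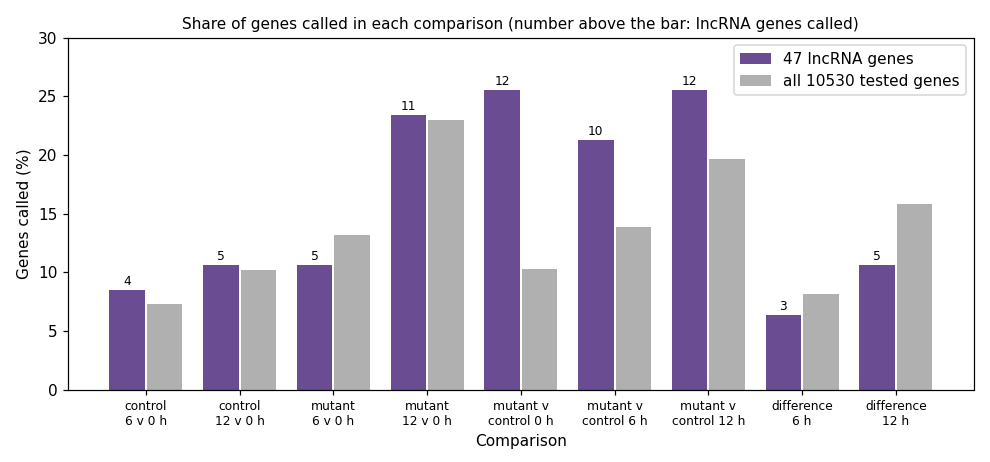
Percentage of genes called (fold change of at least 1.5 and adjusted p of at most 0.05) in each of the 9 comparisons, for the 47 lncRNA genes (purple, with their number above the bar) and for all 10530 tested genes (grey). The lncRNA genes reach 25.5% in the genotype comparisons at 0 and 12 h and lie near the grey bars in the comparisons with 0 h.

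A gap between all 6 control and all 6 mutant libraries was seen for 12 genes, 6 higher and 6 lower in mutants, against 11.3% of all tested genes. The higher ones were CR42646, CR13130, CR43126, CR43199, CR43148 and CR42861, and the lower ones CR43641, CR32385, CR43417, Irar, CR33942 and CR43241. Among the 42 genes that averaged at least 50 in both genotypes, such a gap was seen for 10 (23.8%). The share was 10.4% for the 9020 genes of the table that did so, which were not matched for level. Of all 47 genes, 7 were called at 0, 6 and 12 h in one direction, against 4.45% of all genes. Without CR43641 and CR32385, which passed the minimum through the controls, it was 5 of the 42 genes with both genotypes at 50 or more, beside 3.18% of all such genes. The 7 were CR42646, CR13130 and CR43126 (higher in mutants) and CR43641, CR32385, CR43411 and CR43417 (lower in mutants). The 3 comparisons use separate libraries, but all libraries of a genotype come from the same line. The photoreceptor marker sum was also higher in all 6 mutant than in all 6 control libraries. Of its 10 genes, 5 were called higher in mutants at 0 h and 2 at 6 h. At 12 h 2 were called higher and 1 lower. The median log2 fold changes were 0.60, 0.22 and 0.11. The part of the photoreceptors in these differences was not tested.

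CR42646 differed most. It is a spliced gene with no overlap with another gene and with no established role. Its counts were 58.7 and 107 at 0 h, 75.6 and 108 at 6 h and 142 and 105 at 12 h in controls, against 935 and 932 at 0 h, 928 and 1048 at 6 h and 1033 and 937 at 12 h in mutants. Every mutant library was far above every control library. The log2 fold change was 3.54 at 0 h (SE 0.25, adjusted p = 1.8e-06), 3.43 at 6 h (SE 0.25, adjusted p = 1.4e-06) and 3.0 at 12 h (SE 0.25, adjusted p = 1.6e-06), which is 11.6-, 10.8- and 8-fold. All 3 calls held in all 23 alternatives. It was not called with OS exposure in either genotype, except in controls at 12 h when the second control library of 0 h was left out (1.05, adjusted p = 0.0055), which also called the difference of the responses at 12 h (-0.97, adjusted p = 0.027). The nearest coding gene, CG10417, 149 bp away in the later annotation, did not follow it, with log2 fold changes between genotypes of 0.05, 0.08 and 0.01.

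CR13130 and CR43126 were the other 2 genes higher in mutants at every time. CR13130 had 55.5 and 85.3 at 0 h, 80.9 and 75.7 at 6 h and 70.6 and 97.8 at 12 h in controls, against 180.0 and 186 at 0 h, 251 and 246 at 6 h and 153 and 160.0 at 12 h in mutants, where it was highest at 6 h. Its log2 fold change was 1.40, 1.66 and 0.90 at 0, 6 and 12 h (SE 0.20, adjusted p = 0.00033, 6e-05 and 0.003). It overlaps an exon of bib, a channel-like protein of neural fate choice, on the other strand, and the reads of such a pair cannot be told apart without strand. bib had log2 fold changes of -0.09, -0.12 and -0.05 between genotypes. CR43126, which lies 784 bp from the transcription factor gene fkh, had 219 and 252 at 0 h, 212 and 179.9 at 6 h and 202 and 225 at 12 h in controls, against 368 and 395 at 0 h, 383 and 418 at 6 h and 374 and 379 at 12 h in mutants. Controls stayed at or below 252 and mutants at or above 368, with log2 fold changes of 0.70, 1.03 and 0.82 (adjusted p = 0.00074, 2.5e-05 and 8.6e-05).

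Smaller differences in the same direction were seen for CR43199, CR43148 and CR42861, which are named because their genotypes do not overlap. CR43199 was called at 6 h (log2 fold change 0.64, SE 0.10, adjusted p = 0.00035) and 12 h (log2 fold change 0.61, SE 0.10, adjusted p = 0.00029), with controls between 250.3 and 319 and mutants between 372 and 459. The call at 12 h held in 20 of 23 alternatives and was lost, among others, without the second control library of 12 h (0.56, adjusted p = 0.0044) or the first mutant library of 12 h (0.52, adjusted p = 0.004). CR43148 was called at 0 h (log2 fold change 0.64, SE 0.14, adjusted p = 0.0064), with 200.2 and 251 in controls and 381 and 323 in mutants, and the call held in 21 of 23 alternatives and was lost without the first control library of 0 h (0.48, adjusted p = 0.06) or the first mutant library of 0 h (0.53, adjusted p = 0.064). CR42861 stayed under 1.5-fold at every time (0.48, 0.40 and 0.23).

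CR43641 and CR32385 were lower in mutants by the widest margins at 0 h. CR43641, a single-exon gene beside the tal gene of small peptides, had 84.8 and 103 at 0 h, 119 and 110.4 at 6 h and 98.1 and 123 at 12 h in controls, against 20.7 and 15.8 at 0 h, 33.9 and 24.6 at 6 h and 15.1 and 31.3 at 12 h in mutants. It was 4.94-, 3.87- and 4.86-fold lower in mutants, with log2 fold changes of -2.30, -1.95 and -2.28 (SE 0.31, adjusted p = 0.00024, 0.00049 and 9.3e-05), and was not called with OS exposure in either genotype, except in mutants at 12 h when the first mutant library of 12 h was left out (0.76, adjusted p = 0.048). CR32385 lies in an intron of Galphai, a G protein subunit. It had 95 and 119.5 at 0 h, 87.5 and 79.4 at 6 h and 82.6 and 85 at 12 h in controls, against 15.5 and 11.5 at 0 h, 46.5 and 21.4 at 6 h and 33.5 and 43.3 at 12 h in mutants. Mutants at 0 h were lowest, and with OS exposure they came closer to the controls without reaching them. The log2 fold change between genotypes was -2.90 at 0 h (SE 0.32, adjusted p = 4.8e-05), -1.37 at 6 h (adjusted p = 0.0056) and -1.12 at 12 h (adjusted p = 0.013). The call at 12 h held in 19 of 23 alternatives and was lost, among others, without the first control library of 12 h (-1.14, adjusted p = 0.052) or the second control library of 12 h (-1.09, adjusted p = 0.06) or the first mutant library of 12 h (-0.94, adjusted p = 0.086). Both genes passed the minimum of 50 through the controls.

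Irar, CR33942 and CR43241 were lower in every mutant than in every control library, and were called at some times. Irar had 75.9 and 103 at 0 h, 103 and 119 at 6 h and 82.6 and 95.5 at 12 h in controls, against 32.4 and 38.2 at 0 h, 46.5 and 51.3 at 6 h and 58.4 and 73.4 at 12 h in mutants. Its log2 fold change was -1.31 at 0 h (adjusted p = 0.00062), -1.17 at 6 h (adjusted p = 0.00087) and -0.43 at 12 h (adjusted p = 0.11), so the gap narrowed with time. CR33942 was called at 0 h (-0.80, adjusted p = 0.042) and 12 h (-1.04, adjusted p = 0.0066), and the call at 0 h held in only 15 of 23 alternatives. That at 12 h held in 21 of 23 alternatives and was lost without the second control library of 12 h (-0.90, adjusted p = 0.056) or the first mutant library of 12 h (-0.70, adjusted p = 0.07). CR43241 had 206 and 198 in controls and 97.4 and 120.3 in mutants at 12 h (log2 fold change -0.89, SE 0.14, adjusted p = 0.00022). It shares 42.4% of its exonic bases with CG42748 on the same strand, so its reads are uncertain. CG42748 had a log2 fold change of 0.02 there.

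CR43411 and CR43417 were lower in mutants at every time and fell in mutants with OS exposure. CR43411, a single-exon gene of 364 bp in an intron of osp, had 261 and 169 at 0 h, 110.1 and 132 at 6 h and 65.8 and 111 at 12 h in controls, against 111 and 113 at 0 h, 36.5 and 39.6 at 6 h and 19.5 and 24.1 at 12 h in mutants. Mutants started near the level that controls reached at 6 h and ended at the lowest values of all groups. The log2 fold change between genotypes was -0.90, -1.64 and -1.93 (SE 0.26, adjusted p = 0.024, 0.00049 and 8.7e-05). The call at 0 h was lost without the first control library of 0 h (-0.59, adjusted p = 0.19) and without either mutant library of 0 h. CR43417 had 618 and 494 at 0 h, 565 and 653 at 6 h and 497 and 494 at 12 h in controls, against 308 and 387 at 0 h, 238 and 229.9 at 6 h and 172 and 208 at 12 h in mutants. Its log2 fold change was -0.68, -1.37 and -1.38 (SE 0.14, adjusted p = 0.004, 1.7e-05 and 8.4e-06). The call of CR43417 at 0 h held in 21 of 23 alternatives and was lost without the first control library of 0 h (-0.52, adjusted p = 0.042) or the first mutant library of 0 h (-0.51, adjusted p = 0.044). The fat body marker sum also fell with time in both genotypes and was lower in mutants than in controls at each time. Its genes did not all share the gap at 0 h. There 1 of the 4 tested was called lower in mutants (median log2 fold change -0.07). At 6 h 2 were called lower (median -1.15) and at 12 h all 4 (median -2.41). The part of the fat body in these results was not tested.

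**Figure D3:**
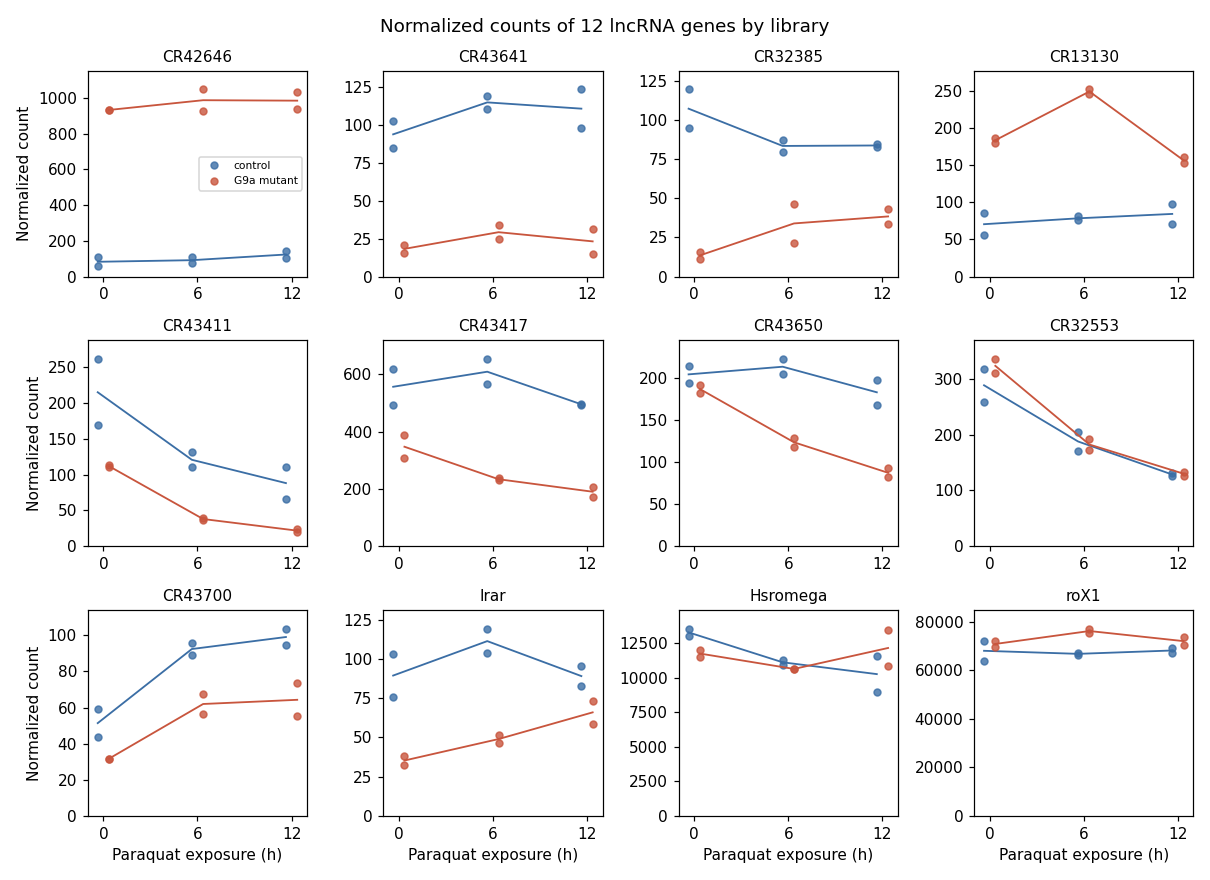
Normalized read counts of 12 lncRNA genes against hours of paraquat exposure, with 1 point per library, lines through the means of 2 libraries, controls in blue and G9a mutants in red. CR42646 and CR13130 are higher and CR43641 and CR32385 lower in mutants at every time, CR43411, CR43417 and CR43650 end lowest in mutants, CR32553 and CR43700 follow the same course in both, and Hsromega and roX1 change little.

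The response to OS was then compared with 0 h in each genotype. In controls 4 of the 47 genes were called at 6 h, 1 higher and 3 lower, against 7.27% of all genes (5.68% higher and 1.6% lower). At 12 h 5 were called, 3 higher and 2 lower, against 10.2% (7.31% and 2.86%). In mutants 5 were called at 6 h, 2 higher and 3 lower, against 13.2% (8.05% and 5.19%), and 11 at 12 h, 4 higher and 7 lower, against 23.0% (12.7% and 10.3%). As shares of 47 these are 8.51%, 10.6%, 10.6% and 23.4%, all close to those of all genes. Controls had median log2 fold changes over the 47 genes of -0.10 (6 h) and -0.07 (12 h), beside 0.02 and 0.00 for all genes. For mutants the medians were 0.04 (6 h) and -0.02 (12 h), beside -0.01 for all genes at both times. In the control 6 h comparison 3 libraries mattered, with counts of 2 without the second control library of 0 h, 1 without the first of 6 h and 2 without the second of 6 h. The times of a genotype share the libraries of 0 h. When each library was centred on its median, 1 gene was called higher and 2 lower in controls at 12 h, and 2 higher and 6 lower in mutants at 6 h. This centring moved the median log2 fold change of all genes in controls from 0.02 to -0.08 at 6 h and from 0.00 to -0.10 at 12 h, and the values given here are relative to the authors' scaling.

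**Figure D4:**
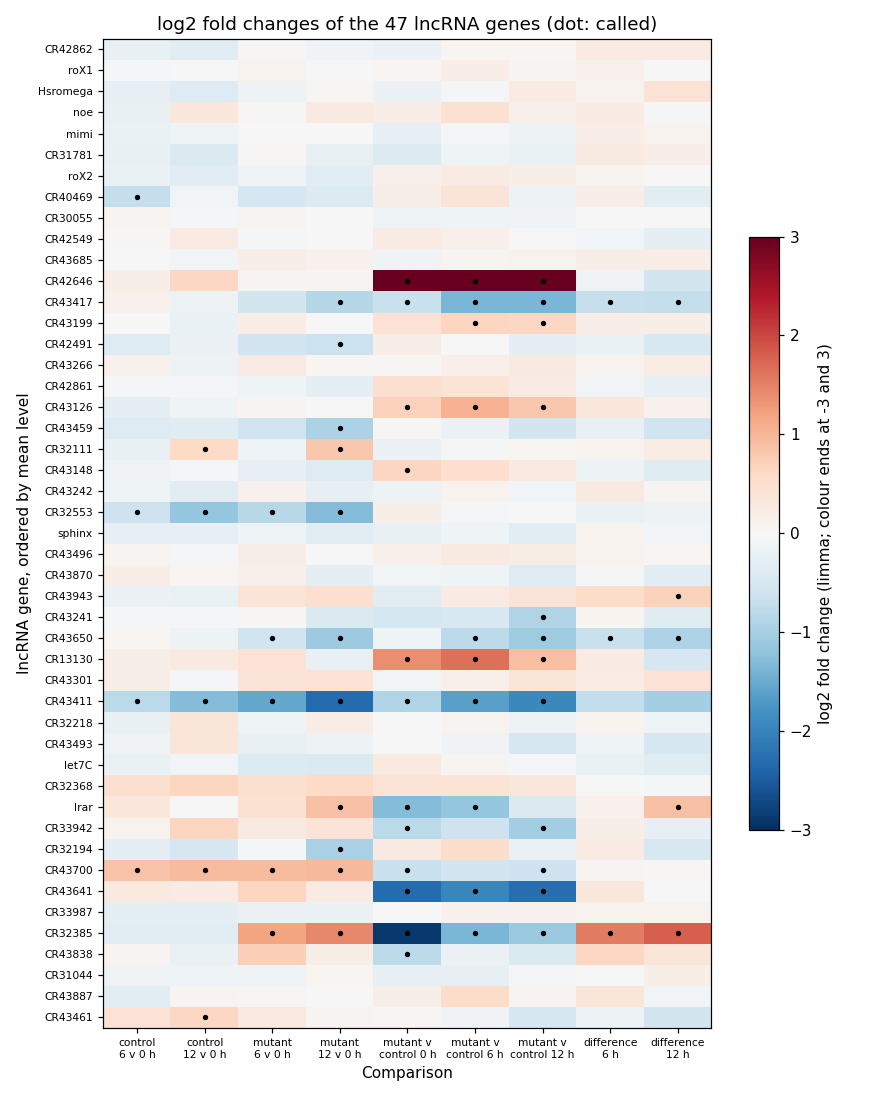
log2 fold changes (limma, colour scale from -3 to 3) of the 47 lncRNA genes in rows, ordered by mean level, for the 9 comparisons in columns, with a dot where a gene was called. CR42646 reaches 3.54 in the genotype comparisons and CR32385 -2.90, whereas the abundant genes at the top show no dots.

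CR32553 and CR43700 were called at both times in both genotypes. CR32553, a spliced gene on the X chromosome, fell steadily, from 259 and 318 at 0 h to 206 and 170.0 at 6 h and 126 and 132 at 12 h in controls. In mutants it fell from 311 and 335 to 172 and 192 and 127 and 134. At 12 h the log2 fold change was -1.15 in controls (SE 0.13, adjusted p = 4.8e-05) and -1.31 in mutants (SE 0.13, adjusted p = 5.4e-06), or 2.22- and 2.47-fold lower. The difference of the responses was -0.15, with a 95% interval of -0.56 to 0.25. In controls the call at 6 h held in 21 of 23 alternatives and was lost without the second control library of 0 h (-0.47, adjusted p = 0.054) or the second control library of 6 h (-0.48, adjusted p = 0.052). CR43700 rose instead, with 59.3 and 43.5 at 0 h, 95.5 and 89.3 at 6 h and 94.5 and 104 at 12 h in controls, against 31.7 and 31.7 at 0 h, 56.6 and 67.4 at 6 h and 55.2 and 73.4 at 12 h in mutants. Its log2 fold changes were 0.85 and 0.95 in controls (adjusted p = 0.01 and 0.0042) and 0.94 and 0.98 in mutants (adjusted p = 0.0038 and 0.0017). In controls the call at 6 h held in 21 of 23 alternatives and was lost without the second control library of 0 h (0.63, adjusted p = 0.091) or the first control library of 6 h (0.80, adjusted p = 0.057). It started lower in mutants, and the genotype calls at 0 and 12 h held in 16 and 17 of 23 alternatives.

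CR32111 rose at 12 h in both genotypes. Its counts were 259 and 247 at 0 h, 212 and 218 at 6 h and 388 and 376 at 12 h in controls, against 248 and 205 at 0 h, 215 and 200.0 at 6 h and 407 and 391 at 12 h in mutants. The libraries of 12 h were above all others in both genotypes, while those of 6 h were below those of 0 h in controls and overlapped them in mutants. The log2 fold change at 12 h was 0.59 in controls (SE 0.10, adjusted p = 0.00092) and 0.82 in mutants (SE 0.10, adjusted p = 3.2e-05). The call in controls lay just above 1.5-fold and held in 17 of 23 alternatives. CR43411 fell at 12 h in controls too (log2 fold change -1.29, SE 0.26, adjusted p = 0.0028), and in mutants its log2 fold change was -2.32 (SE 0.26, adjusted p = 1.5e-05), the largest change of the 47 genes with OS exposure. The difference of its responses was not called (-1.03, 95% interval -1.83 to -0.22), except without the first control library of 0 h (-1.34, adjusted p = 0.026) or of 12 h (-1.40, adjusted p = 0.014).

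Other genes were called in 1 genotype at 1 time. CR40469 was lower in controls at 6 h, with 671 and 1012 against 1343 and 1342 at 0 h (log2 fold change -0.70, SE 0.15, adjusted p = 0.0044), and the call rested on the first library of 6 h, since the fold change was under 1.5 without it (-0.41, adjusted p = 0.014). At 12 h it was back at 1187 and 1341. CR43461 was called higher in controls at 12 h (0.63, adjusted p = 0.043) and held in only 10 of 23 alternatives. In mutants at 12 h CR42491 (-0.64, adjusted p = 0.0008) and CR32194 (-0.98, adjusted p = 0.016) were lower. The first held in 22 of 23 alternatives and was lost without the second mutant library of 12 h (-0.58, adjusted p = 0.0086), and the second held in 19 of 23 alternatives and was lost, among others, without the second mutant library of 0 h (-0.74, adjusted p = 0.13) or the first mutant library of 12 h (-0.71, adjusted p = 0.12). CR42491 shares most of its exonic bases with RpL22, a ribosomal protein gene on the same strand, so its reads are uncertain, and CR32194 shares 17.5% with other genes on its strand. CR32194 was called in controls at 12 h as well without the first control library of 12 h (-0.96, adjusted p = 0.039). None of these 4 genes had a called difference of the responses at that time.

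The difference of the responses, that is the change in mutants minus the change in controls, was called for 3 of the 47 genes at 6 h (1 higher and 2 lower) and 5 at 12 h (3 higher and 2 lower). Of all tested genes it was called for 8.19% at 6 h (3.5% and 4.68%) and 15.8% at 12 h (7.26% and 8.53%). As shares of 47 these are 6.38% and 10.6%. At 6 h the genes were CR43650, CR43417 and CR32385, and at 12 h these with Irar and CR43943. At 6 h the count was 0 without the second control library of 6 h, the second mutant library of 0 h or the first mutant library of 6 h, and 1 without the first control library of 6 h or any control library of 0 or 12 h. At 12 h it was 3 without the second mutant library of 0 h.

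CR32385 had the largest difference. It rose in mutants by 1.18 at 6 h (SE 0.32, adjusted p = 0.012) and 1.44 at 12 h (SE 0.32, adjusted p = 0.0024), while the values in controls were -0.35 and -0.34. The difference was 1.53 at 6 h (SE 0.45, adjusted p = 0.042) and 1.79 at 12 h (SE 0.45, adjusted p = 0.011). CR32385 passed the minimum mean through the controls only, so its choice favoured a low level in mutants. Its mutant libraries of 0 h, which both differences share, held 24 and 16 reads. Those of 6 h held 37 and 20 and those of 12 h 31 and 36, while control libraries held between 64 and 149. The call in mutants at 6 h held in 19 of 23 alternatives and was lost, among others, without the second mutant library of 0 h (0.98, adjusted p = 0.086) or the first mutant library of 6 h (0.64, adjusted p = 0.12). The difference at 6 h was called in 10 of 23 alternatives and that at 12 h in 22. Irar rose in mutants at 12 h (log2 fold change 0.88, SE 0.20, adjusted p = 0.0032) with no such change in controls (0.01), and the difference of 0.87 (adjusted p = 0.04) was called in 13 of 23 alternatives. CR43417 fell in mutants at 12 h (log2 fold change -0.86, SE 0.14, adjusted p = 0.00028), and its differences of -0.69 and -0.70 (adjusted p = 0.037 and 0.02) were called in 15 and 17 of 23 alternatives.

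CR43943 had opposite courses in the genotypes, with no call in either alone while all libraries were used. In controls it had 205 and 206 at 0 h, 179 and 182 at 6 h and 179 and 178 at 12 h. In mutants it had 179 and 153 at 0 h, 238 and 195 at 6 h and 239 and 229.8 at 12 h. Controls were lower with OS exposure and mutants higher, by log2 fold changes of -0.20 and 0.50 at 12 h. The difference of 0.70 (SE 0.17, adjusted p = 0.0081) was called in all 23 alternatives, and the change in mutants was called without the first mutant library of 0 h (0.61, adjusted p = 0.0049).

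Neighbouring coding genes were read beside the lncRNA genes, since 10 of the 47 lie inside or across introns of another gene, 4 overlap an exon on the opposite strand, 11 overlap an exon on the same strand (5 of them the microRNA hosts other than let7C), 1 (let7C) overlaps exons on both strands, and 22 have a coding gene within 1000 bp without overlap. The library kit keeps no strand, so reads in shared exons cannot be assigned. The nearest coding gene of the table was taken as the neighbour at any distance, and it was tested for 41 genes. For Irar, inside InR, the nearest was CG15498 at 23201 bp. The counts can therefore include genes that are neither hosts nor close. The share of neighbours that were called with their lncRNA gene varied between comparisons, and the counts are small. In mutants at 12 h 9 called lncRNA genes had such a neighbour and 3 of these neighbours were called, all in the same direction, where 9 of all 41 neighbours and 23.0% of all tested genes were called. In the other 3 comparisons with 0 h it was 0 of 2 and 0 of 4 in controls at 6 and 12 h and 0 of 4 in mutants at 6 h. Between genotypes it was 1 of 9 at 0 h, 2 of 8 at 6 h and 4 of 10 at 12 h, and of these 7 pairs 1 had the same and 6 the opposite direction, with pairs called at more than 1 time counted at each. Of all 41 neighbours 2, 5 and 7 were called there, beside 10.3%, 13.9% and 19.7% of all tested genes. For the difference of the responses it was 0 of 3 at 6 h and 1 of 4 at 12 h.

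Hpd, whose product breaks down tyrosine, lies 82 bp from CR43943 on the other strand. Its mean of 2 libraries was 4451 at 0 h, 11465 at 6 h and 10539 at 12 h in controls. The mutant means were 3696, 5851 and 2335. It rose in controls (1.25 at 12 h, adjusted p = 1.2e-07) and in mutants rose at 6 h (0.66, adjusted p = 9.5e-06) and was below its 0 h level at 12 h (-0.66, adjusted p = 4.4e-06), and its difference of the responses at 12 h was -1.91 (adjusted p = 1.4e-07), opposite in sign to that of CR43943.

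Opposite signs were also seen for CR43199 and CR33942. CG11368, 10 bp from CR43199, was lower in mutants at 6 h (-0.77) and 12 h (-1.48), where CR43199 was higher. Vps51, which codes for a subunit of a membrane tethering complex and lies 526 bp from CR33942, was higher in mutants at 0 h (0.72) and 12 h (0.68), where CR33942 was lower. Galphai, around CR32385, was higher in mutants at 12 h (0.74) while CR32385 was lower, although both rose in mutants from 0 to 12 h (0.90 for Galphai).

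CG5550, antisense to CR43417, moved the same way. It fell in mutants at 12 h (-1.89, adjusted p = 0.026) and was lower in mutants than in controls at 12 h (-2.26, adjusted p = 0.012), at a mean of 15.2 counts against 405 for CR43417. osp, around CR43411, fell in mutants at 12 h (log2 fold change -0.65, adjusted p = 6.8e-07), less than the -2.32 of CR43411. roX1 shares 7.17% of its exonic bases with ec on the other strand. ec fell in mutants, with log2 fold changes of -0.66 at 6 h and -1.13 at 12 h, where roX1 had 0.10 and 0.02.

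**Figure D5:**
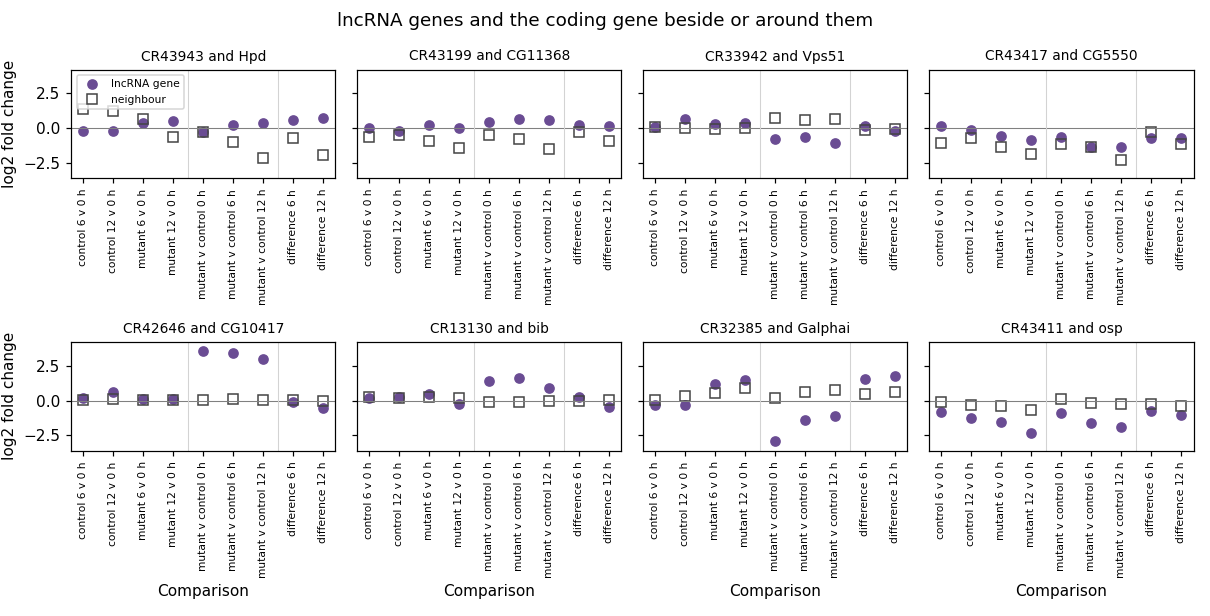
log2 fold changes (limma) in the 9 comparisons for 8 lncRNA genes (filled circles) and a coding gene beside or around each (open squares), with grey lines between the comparisons with 0 h, those of genotypes and the differences of the responses. CR43943, CR43199 and CR33942 have the opposite sign to their neighbour where both were called, CR43417 and CG5550 fall together, and CG10417 and bib stay near 0 while CR42646 and CR13130 differ between genotypes.

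The 24 genes called in no comparison included the 5 most abundant. For 23 of them every fold change was under 1.5, and the median of their largest absolute log2 fold change was 0.34. The exception, CR32368, was named after its values were seen. It had 37.6 and 68.6 at 0 h, 67.6 and 74.4 at 6 h and 90.9 and 71 at 12 h in controls, against 57 and 79.9 at 0 h, 103 and 87.7 at 6 h and 71.4 and 146 at 12 h in mutants, and its change at 12 h was 0.65 in controls (adjusted p = 0.17) and 0.59 in mutants (adjusted p = 0.17), with libraries that overlapped in mutants but not in controls. In mutants the call was gained without the first library of 12 h (1.1, adjusted p = 0.020). With 2 libraries in each group the p-values measure the spread between pools of heads, and limma estimates that spread with help from all genes. An exact permutation test of 2 against 2, which borrows nothing, has a smallest p of 0.333.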

How the data were processed

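Per the labels and the study's methods, the authors purified mRNA from total RNA of pooled heads, prepared libraries with an Illumina TruSeq kit that keeps no strand, and aligned single-end reads with BWA to BDGP 5. HTSeq counted reads per gene, and its strand setting is not given in the sources used here. The deposited signal values are gene counts that the authors divided by DESeq size factors, without division by gene length. All 188184 values were within 0.01 reads of a whole multiple of what 1 read is worth in the library, so whole reads were recovered, and 10530 genes with a mean of at least 10 were tested. Other deposited tables hold the authors' own mean counts, fold changes and p-values for selected genes and were not used.

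The main test was limma 3.58.1 (R 4.3.3) with a trend, on log2(normalized count + 1), fitted to all 12 libraries with 6 group means. The fold changes are on that scale, which understates the change of low genes. Calls needed a 1.5-fold difference or more together with a p of 0.05 or less after Benjamini-Hochberg adjustment. The 9 comparisons were those of 6 or 12 h with 0 h for either genotype, of the genotypes at 0, 6 and 12 h, and of the mutant change with the control change at 6 and 12 h. Alternatives were pseudocounts of 0.5 and 5, no minimum, a minimum of 50, TMM scaling, median centring, a fit restricted to the compared libraries, a replicate block, count models on the recovered reads (edgeR 4.0.16 and DESeq2 1.42.0), thinning of all libraries to the depth of the smallest, and each library left out in turn, 23 in all. The scripts were tested on simulated data. Replicates of a group differed by more than sampling noise and were kept as separate samples. Nothing in the labels says whether the pools came from separate cultures.

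Symbols were paired with FlyBase identifiers for 15001 of 15682 rows. Gene models and neighbours came from Ensembl release 115 (BDGP 6), by identifier. The genes, gene lists and tests were chosen with earlier results of these data known. Named in the text were genes with a name of their own, the 5 with the highest means, the 3 highest and 3 lowest called genes without overlap in each comparison, the 3 on either side of the minimum mean, and genes said to be singled out. Marker and pathway lists were described by counts and medians. The remaining genes called in a comparison were chosen after their values were seen.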

Additional observations from a re-analysis of the deposited data

Results flagged for a closer look

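The response to OS exposure differed between the genotypes for 5 lncRNA genes by the test of the difference itself (limma, change in mutants minus change in controls on the log2 scale). At 6 h these differences were 1.53 for CR32385, -0.66 for CR43650 and -0.69 for CR43417. At 12 h they were 1.79 for CR32385, -0.93 for CR43650, -0.70 for CR43417, 0.87 for Irar and 0.70 for CR43943. Those of CR43650 and CR43943 at 12 h were called in all 23 alternatives and that of CR32385 at 12 h in 22, whereas the 3 differences of 6 h were called in 10 to 15 of them. CR32385 passed the minimum mean through the controls only, and its mutant libraries without OS exposure held 24 and 16 reads. Over all tested genes 8.19% had a called difference at 6 h and 15.8% at 12 h.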

How the results depend on the processing

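No call among the 47 genes changed direction under any of the 23 alternatives. Of 67 called values, 41 kept the call in all of them and 26 lost it in at least 1, while 24 values gained a call in at least 1. Median centring gave 3 called lncRNA genes in controls at 12 h and 8 in mutants at 6 h. For the difference of the responses at 6 h there was 1 with no minimum and 1 with reads thinned to the smallest library, and at 12 h there were 2 with no minimum. A minimum mean of 100 would have left 31 lncRNA genes and one of 25 would have left 69. Leaving out single libraries gave 1 to 4 called genes in controls at 6 h, 6 to 12 between genotypes at 0 h, 0 to 3 for the difference at 6 h and 3 to 6 at 12 h. It left 5 to 7 genes called between genotypes at all 3 times and 20 to 23 called at least once.

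Same-numbered libraries were not treated as pairs in the main fit. Their deviations correlated over 0.1 in 6 of 15 pairs of groups (range -0.57 to 0.45). The control 6 h group correlated negatively with every other group (-0.57 to -0.12), and control 0 h and 12 h positively with each other (0.45). Whether groups share a replicate factor under other numbers was not tested. With a replicate block the count was 4 in controls at 12 h and 11 between genotypes at 0 h, and in the other 7 comparisons it was that of the fit without the block. Depth differed between times, with the 0 h libraries deepest, and its part in the standard errors was not tested.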
